A study of Homo sapiens with 7 samples.

Results

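Integrins, laminins and the adhesive glycoproteins that integrins bind were followed in human dermal fibroblasts made to express progerin or prelamin A. The genes were taken by symbol: every integrin alpha (ITGA) and beta (ITGB) subunit, every laminin chain (LAMA, LAMB and LAMC), the thrombospondins THBS1 to THBS4, tenascin C (TNC), the nidogens NID1 and NID2, perlecan (HSPG2) and fibronectin (FN1). RefSeq holds 47 genes by this rule, and 44 had a probe set of 1 gene on the array, of 19775 genes with such a probe set. The signal of 10 of them (ITGA2B, ITGA9, ITGAD, ITGAL, ITGAM, ITGAX, ITGB4, ITGB7, LAMB4 and LAMC3) stayed below 100 on every array. The other 34 entered the tests, with 12726 genes in all. The other genes of the rule are not analysed here.

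Integrins are cell surface receptors made of 1 alpha and 1 beta subunit, and the pair sets which ligand is bound. In dermal fibroblasts the beta 1 subunit is the common partner of the receptors for collagen, laminin and fibronectin, while alpha V pairs with several beta subunits to read RGD sites in matrix proteins. Laminins are trimers of an alpha, a beta and a gamma chain that polymerise in basement membranes, where nidogens and perlecan link them to collagen IV, whereas thrombospondins and tenascin C modulate how cells hold on to the matrix.

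Total RNA of GM00038, a primary dermal fibroblast line, was hybridised to 7 Affymetrix arrays. All cells were at passage 10, had been grown in 3% oxygen and carried 1 of 6 conditions. The 2 control arrays are labelled only as human fibroblasts, and no source used here says whether these cells carried a vector. The other 5 arrays, 1 per condition, were of cells with progerin, the truncated lamin A of progeria, of progerin cells with FTI, of cells with prelamin A, the farnesylated precursor of lamin A, of prelamin A cells with FTI, and of prelamin A cells with ZMPSTE24, the protease that processes prelamin A. FTI is the farnesyltransferase inhibitor L-744832, given at 10 nM for 48 h. Progerin and prelamin A were introduced with lentiviral vectors under the cytomegalovirus promoter and were thus overexpressed rather than made from their own loci. ZMPSTE24 was also overexpressed, by a method for which the study refers to earlier work. One label conflict was found: on the array of prelamin A with FTI the title gives FTI alone, while the source and treatment fields give both.

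The deposited values are MAS 5.0 signals on a linear scale, and they were tested as log2(signal + 16), a scale that understates the change of dim genes. Beside the 2 controls every condition was a single array, whose spread had to be taken from the controls, and no source says whether the controls were separate cultures. The p-values therefore measure only the spread between the 2 control arrays, which may be technical. A call needed both a fold over 2 and an unadjusted limma p under 0.05. The study names these thresholds among its results for another test, the S-score, for which its methods give a stricter p. None of the 34 genes passed an adjusted p of 0.05 in this 6-condition model, and "rose" and "fell" mean called by the unadjusted rule unless an adjusted p is named.

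The arrays differed little in level, with median signals from 64.9 to 77.0. The 3' to 5' ratio of β-actin was 1.62 on the prelamin A array and 1.50 on the prelamin A and ZMPSTE24 array, and 1.06 to 1.26 on the others, and its part in the results was not tested. All 10 fibroblast markers read at least 100, with a summed signal from 224254 to 283386. Of 7 endothelial markers, PECAM1 and TEK reached 100 on some array, and CDH5, CLDN5, KDR, TIE1 and VWF did not. TEK read 23.5 and 2.19 on the controls and 167 to 344 on the transduced arrays, and CD14, a monocyte marker, read 87.2 and 55.3 on the controls and 198 to 575 on the transduced arrays. The summed endothelial signal was 322 and 205 on the controls and 390 to 523 on the others. That of 5 leukocyte markers was 563 and 408 against 591 to 874. The part of both marker sets in the results was not tested. The keratins KRT1, KRT5 and KRT14 with CDH1, all 4 melanocyte markers, MYH11 and DES, and PTPRC also stayed below 100 everywhere. Of the other markers of keratinocytes, KRT10 read 4980 to 10671, and the desmosome gene DSP read 8332 and 5167 on the controls, 5734 and 7340 on the progerin arrays and 16834, 15474 and 9916 on the prelamin A arrays, and was called higher with prelamin A by 1.36. The summed signal of the 6 keratinocyte markers was 19076 and 12781 on the controls. It was 11450 and 12391 on the progerin arrays and 16497 to 22559 on the prelamin A arrays. Of the smooth muscle markers, SMTN read 784 to 2024, and the contractile gene CNN1 read 561 and 405 on the controls, 1325 and 1706 on the progerin arrays and 370, 913 and 766 on the prelamin A arrays. CNN1 was called higher with progerin by 1.44 and with FTI in prelamin A cells by 1.27. The summed signal of the 4 smooth muscle markers was 1594 and 1640 on the controls, 3369 and 3832 on the progerin arrays and 1294 to 2112 on the prelamin A arrays. The part of these markers in the results was not tested. In such bulk samples fewer cells of a type and less RNA per cell cannot be told apart.

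Promoters are shown for the 4 genes on which the results turn, the integrin subunits ITGA8, ITGA5 and ITGB8 and the glycoprotein TNC, which were chosen after their values were seen because calls in several comparisons, or the smallest adjusted p of a pooled one, fell on them. Each runs 5′ to 3′ on the gene's strand, from 250 bases before to 50 bases after the RefSeq start of build GRCh38.p14. ITGA8 lies on the minus strand at chr10:15719873-15720172, ITGA5 on the minus strand at chr12:54419217-54419516, ITGB8 on the plus strand at chr7:20330650-20330949 and TNC on the minus strand at chr9:115118108-115118407. Capitals mark matches on either strand to a GC box, an AP-1 site, a TEAD site or a TATA box, and run together where matches overlap.
ITGA8: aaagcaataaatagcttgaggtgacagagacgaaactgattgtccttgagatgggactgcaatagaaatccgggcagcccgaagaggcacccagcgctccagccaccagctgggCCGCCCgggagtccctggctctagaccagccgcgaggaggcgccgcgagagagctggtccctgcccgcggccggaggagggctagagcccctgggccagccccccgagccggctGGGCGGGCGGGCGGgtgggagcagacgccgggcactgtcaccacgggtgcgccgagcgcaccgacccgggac
ITGA5: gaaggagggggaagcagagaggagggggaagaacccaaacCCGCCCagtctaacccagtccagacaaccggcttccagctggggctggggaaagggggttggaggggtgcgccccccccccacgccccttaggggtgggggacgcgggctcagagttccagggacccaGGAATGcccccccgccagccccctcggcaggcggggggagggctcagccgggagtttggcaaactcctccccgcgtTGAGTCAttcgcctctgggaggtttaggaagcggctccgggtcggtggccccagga
ITGB8: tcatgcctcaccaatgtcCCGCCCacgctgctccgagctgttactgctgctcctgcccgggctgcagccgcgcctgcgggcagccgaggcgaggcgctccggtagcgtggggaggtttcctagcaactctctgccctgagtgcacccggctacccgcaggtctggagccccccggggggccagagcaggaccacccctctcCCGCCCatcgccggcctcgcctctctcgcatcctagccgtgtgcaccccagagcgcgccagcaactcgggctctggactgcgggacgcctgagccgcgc
TNC: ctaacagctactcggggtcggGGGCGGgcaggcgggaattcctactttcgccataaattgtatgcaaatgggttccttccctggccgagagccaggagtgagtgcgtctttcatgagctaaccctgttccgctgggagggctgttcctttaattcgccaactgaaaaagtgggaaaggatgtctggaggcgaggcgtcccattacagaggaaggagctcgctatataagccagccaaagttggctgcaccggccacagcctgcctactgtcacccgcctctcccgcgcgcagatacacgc

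The ITGA8 promoter held 4 GC boxes, that of ITGB8 2, and those of ITGA5 and TNC 1 each. Of these 4 promoters, ITGA5 alone also held an AP-1 and a TEAD match, and none held the letters TATAAA searched as a TATA box. The TNC promoter holds the letters tatataa, which that search does not match. The GC box was searched as GGGCGG and stood in 44.95% of all 35116 promoters of this length. The AP-1 site was searched as TGACTCA, which stood in 4.949% of these promoters on one or the other strand. The TEAD site was searched as GGAATG, found in 14.03% of the same promoters. The TATA box was searched as TATAAA, found in 11.53% of them. RefSeq promoters were given for 35 of the genes (44 promoters), and a GC box was found for 22 of them, a TEAD match for 6 and an AP-1 match for 3. These matches describe letters and are no evidence that a factor binds.

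To see how the receptors differed between cells with either lamin, the alpha subunits were compared first, by ligand. ITGA8 encodes the alpha 8 subunit, which pairs with beta 1 and binds RGD sites in fibronectin, tenascin C and nephronectin. Its signal was 139 and 118 on the controls, 399 with progerin, 263 with progerin and FTI, 1439 with prelamin A, 802 with prelamin A and FTI and 356 with prelamin A and ZMPSTE24. All 5 transduced arrays lay above both controls, and within each line the treated arrays lay below the untreated one. With progerin ITGA8 rose by 1.52 in log2 units (standard error 0.33, 95% interval 0.64 to 2.41, adjusted p = 0.440 in limma). In prelamin A cells it rose by 3.34 (standard error 0.33, interval 2.45 to 4.22, adjusted p = 0.0999 in limma), 10.1-fold. A second ITGA8 probe set above 100 moved the same way against control, by 0.86 and 3.25. Within the progerin line that probe set was higher with FTI, at 182 against 128.

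ITGA5 encodes the alpha 5 subunit of the classical fibronectin receptor. Its signal was 3403 and 4544 on the controls, 3112 and 3092 with progerin without and with FTI, 1022 with prelamin A, 892 with prelamin A and FTI and 1516 with prelamin A and ZMPSTE24. The 3 prelamin A arrays were the lowest of the 7, and the progerin arrays lay just below the controls. In prelamin A cells ITGA5 fell by 1.93 (standard error 0.36, interval -2.89 to -0.97, adjusted p = 0.185 in limma), 3.80-fold. In progerin cells the difference was -0.34 (interval -1.30 to 0.63). The gene has 1 probe set on the array.

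Some of the collagen-binding alpha subunits were higher with prelamin A. ITGA2, the alpha 2 subunit, read 185 and 510 on the controls, 506 and 519 on the progerin arrays, 1328 with prelamin A, 621 after FTI and 525 with ZMPSTE24. At this probe set only the untreated prelamin A array stood well apart from control 2. A dimmer ITGA2 probe set read 150 and 316 on the controls, 557 with prelamin A, 558 after FTI and 266 with ZMPSTE24. ITGA2 rose by 2.05 (standard error 0.65, adjusted p = 0.345 in limma), but the difference was 2.74 against control 1 and 1.35 against control 2. The alpha 10 subunit ITGA10, a collagen receptor known from cartilage, read 91.7 and 116 on the controls, 128 and 106 on the progerin arrays and 235, 111 and 175 on the prelamin A arrays without treatment, with FTI and with ZMPSTE24. ITGA10 rose by 1.07 with prelamin A (standard error 0.34, adjusted p = 0.346 in limma), and against control 2 alone the difference was 0.92, under 2-fold. The remaining collagen receptors were not called. ITGA11, a collagen I receptor of fibroblasts, read 3936 and 7092 on the controls and 3346, 2705, 3177, 2118 and 1479 on the transduced arrays, all below both controls. ITGA1 read between 263 and 615, with the progerin arrays lowest.

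Of the laminin-binding alpha subunits, ITGA7, best known from muscle, read 1125 and 279 on the controls, 2402 and 2260 on the progerin arrays, 458 with prelamin A, 1285 after FTI and 2087 with ZMPSTE24. Both progerin arrays were the highest of the 7, yet the spread between the controls gave a difference of 2.06 with a standard error of 0.86 (interval -0.23 to 4.35), so it was not called here. It was called with a pseudocount of 64 and with an intensity trend. ITGA3 followed the same order at its top, at 552 and 474 on the progerin arrays against 330 and 232 on the controls and 262 to 456 with prelamin A. ITGA6 read 441 to 871 and was not called in any line.

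**Figure D1:**
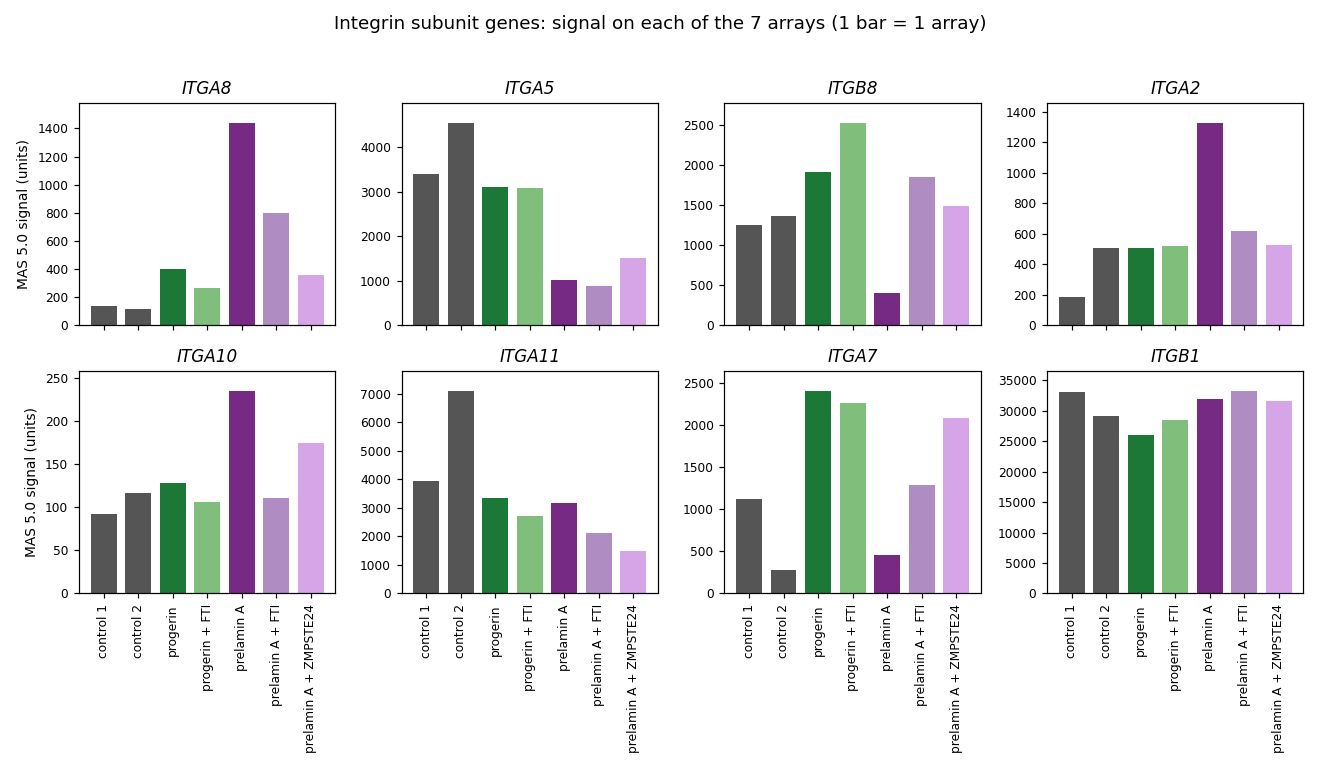
Signal of 8 integrin subunits on each of the 7 arrays (y axis, MAS 5.0 signal on a linear scale from 0, set for each gene; x axis, the arrays by condition; each bar is 1 array, with no error). ITGA8 lies above the controls on all 5 transduced arrays, ITGA5 is lowest on the 3 prelamin A arrays, ITGB8 is lowest at 407 with prelamin A alone, and ITGB1 is nearly flat.

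Of the beta subunits, ITGB1 had similar signals throughout, at 33174 and 29101 on the controls and between 25980 and 33261 on the other arrays. Its difference was -0.26 with progerin (interval -1.13 to 0.62) and 0.04 with prelamin A (interval -0.83 to 0.91). These intervals leave room for changes of up to about 1 on the log2 scale. ITGB8, which pairs with alpha V in the receptor that activates latent TGF-β, read 1254 and 1370 on the controls, 1912 with progerin, 2530 with progerin and FTI, 407 with prelamin A, 1850 with prelamin A and FTI and 1488 with prelamin A and ZMPSTE24. The untreated prelamin A array was the lowest and the other 4 transduced arrays lay above both controls. With prelamin A alone ITGB8 fell by 1.65 (standard error 0.32, adjusted p = 0.190 in limma), 3.14-fold. A second, dim ITGB8 probe set, which reached at most 107, differed by -0.20.

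ITGB5, another partner of alpha V, was the highest on the 3 prelamin A arrays, at 16159, 14000 and 11530. It read 10771 and 10580 on the controls and 9537 and 9495 on the progerin arrays. The difference with prelamin A was 0.60 and was not called. At dimmer probe sets the difference was 1.07, 0.40 and 1.36, and with every probe set tested ITGB5 was called with prelamin A. ITGB3 was dim, at 125 and 108 on the controls, 198 and 212 on the progerin arrays and 71.0, 114 and 111 on the prelamin A arrays. ITGB2, the leukocyte beta subunit, read 66.8 to 226. The alpha subunits that pair with it in leukocytes (ITGAL, ITGAM, ITGAX and ITGAD) were below 100 on every array. ITGAV, the alpha V subunit itself, ranged from 7901 to 11327 with no call in either line. ITGAE, a lymphocyte subunit, was the highest on the 3 prelamin A arrays, at 7470, 6915 and 6272 against 5109 to 5606 elsewhere, and was not called. ITGA4, which binds the alternatively spliced part of fibronectin, was the highest on both progerin arrays, at 2251 and 2080. With prelamin A it differed by -0.53, and by -1.13, -0.45 and -0.39 at dimmer probe sets. With every probe set tested ITGA4 was called with prelamin A.

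Counted over the 34 genes, 1 rose (ITGA8) and 1 fell (NID2) in progerin cells, where 5.8% of all genes tested were called, 3.76% higher and 2.04% lower. In prelamin A cells 3 rose (ITGA8, ITGA2 and ITGA10) and 2 fell (ITGA5 and ITGB8), where 10.3% of all genes were called, 6.29% higher and 4.02% lower. The count in progerin cells was thus near that of genes at large. The 5 genes called in prelamin A cells were 14.7% of the 34, beside 10.3% of all genes. All 5 were integrin subunits, with no laminin chain or glycoprotein among them. Integrin subunits make up a large part of the 34 genes, and whether they were called more often than the other members was not tested. The median difference was -0.08 over the 34 genes with progerin, beside 0.01 over all genes, and -0.10 with prelamin A, beside -0.02.

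**Figure D2:**
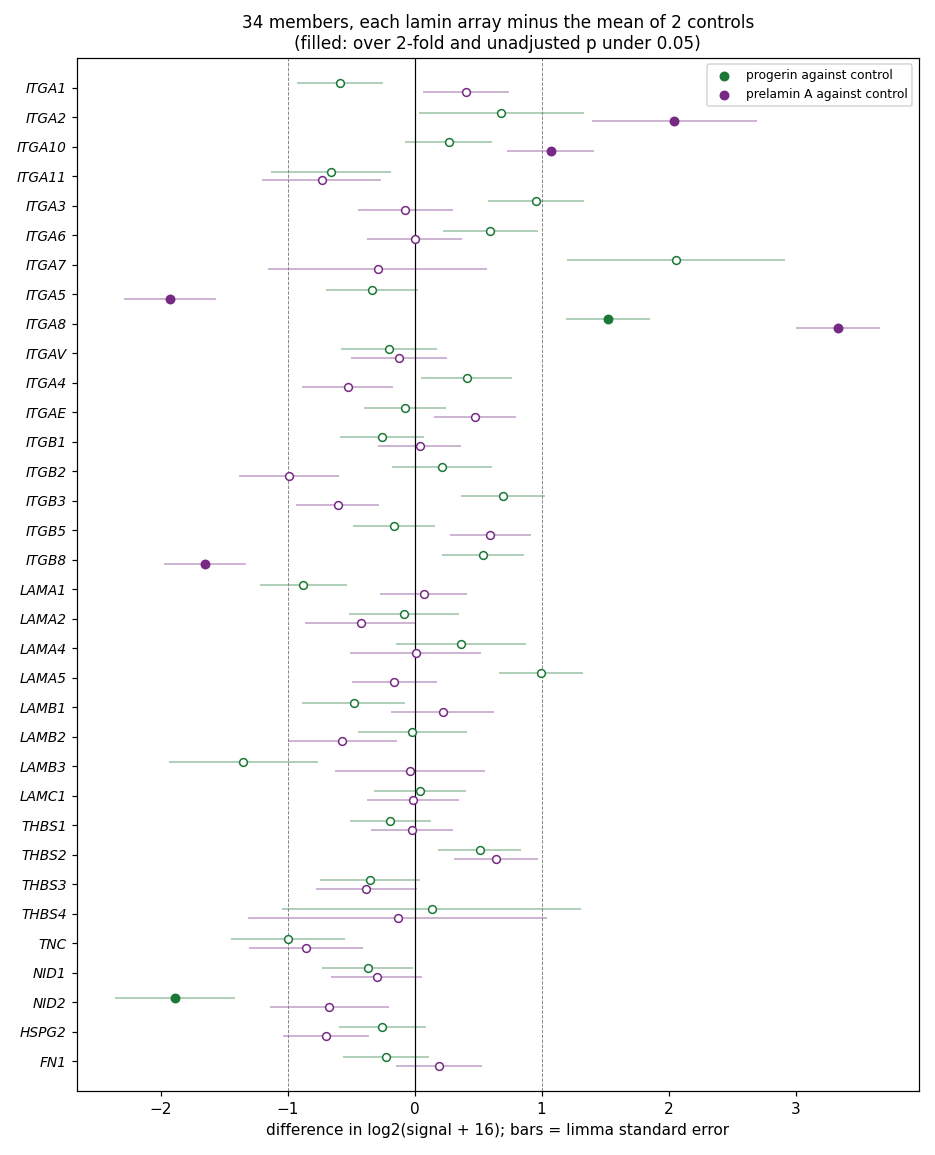
Log2 difference from control of the 34 genes with progerin and with prelamin A (x axis, log2 units; y axis, genes by family; filled points were called, dashed lines mark 2-fold, and bars are the standard errors of the 6-condition limma model). ITGA8 is called in both lines, NID2 with progerin only, and ITGA2, ITGA10, ITGA5 and ITGB8 with prelamin A only. Both lines were compared with the same 2 controls.

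Set directly against each other, the untreated arrays of the prelamin A and progerin lines differed in 5 of the genes, where 7.05% of all genes were called, 3.59% higher and 3.46% lower with prelamin A. This comparison uses 1 array on each side. ITGA8 was higher with prelamin A by 1.81 (standard error 0.38, adjusted p = 0.618 in limma). ITGB8 was lower, with a difference of -2.19 (standard error 0.37, adjusted p = 0.618 in limma). The differences of ITGA5, ITGB3 and LAMA5 were -1.59, -1.30 and -1.16, and that of LAMA5 was between signals of 45.5 and 121. LAMA5 reached 100 on the progerin array alone and entered the tests through it, so its count among the 5 carries no weight.

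Among the matrix ligands, no laminin chain was called in either line, although LAMA5 with progerin, at a difference of 1.00, was called with median centring and with a pseudocount of 1. LAMC1, the gamma 1 chain, read 11624 and 8735 on the controls and 10006 to 14849 on the transduced arrays. LAMA4, the alpha 4 chain of mesenchymal and vascular laminins, read 6458 and 3263 on the controls, 5933 and 6004 on the progerin arrays and 4615, 7153 and 9286 on the prelamin A arrays without treatment, with FTI and with ZMPSTE24. At these brightest probe sets both genes were at their highest with prelamin A and ZMPSTE24. Dimmer LAMA4 probe sets read 1045 and 347 on that array, below both controls (1293 and 1311, and 414 and 502). Another dim one, at 167, was highest there. A dimmer LAMC1 probe set read 3058 and 3713 on the controls and 4534 to 6064 on the transduced arrays, all above both controls. LAMB1, the beta 1 chain, read 2668 and 4092 on the controls, 2365 and 1991 on the progerin arrays and 3860, 3194 and 1523 on the prelamin A arrays. LAMA1, the alpha 1 chain of early basement membranes, read 351 and 283 on the controls, 164 and 137 on the progerin arrays and 332, 147 and 260 on the prelamin A arrays. The untreated prelamin A array thus lay within the range of the controls for LAMB1 and LAMA1, and the progerin arrays below it. LAMB2 was lowest on the 3 prelamin A arrays, at 1520 to 1600 against 1867 and 3042 on the controls. LAMA2 read 447 to 821. LAMB3 and LAMA5 were dim, at no more than 181 and 121.

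The nidogens, which bridge laminin and collagen IV, were below both controls on all 5 transduced arrays. NID2 read 721 and 1304 on the controls, 251 with progerin, 267 with progerin and FTI, 603 with prelamin A, 338 after FTI and 384 with ZMPSTE24. The progerin arrays were the lowest, and the untreated prelamin A array came closest to control 1. In progerin cells NID2 fell by 1.89 (standard error 0.47, interval -3.13 to -0.64, adjusted p = 0.513 in limma), 3.70-fold. NID1 read 2504 and 3312 on the controls and 1497 to 2342 on the transduced arrays, and was not called. HSPG2 read 1168 to 2580, lowest with ZMPSTE24 and highest on control 2.

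Tenascin C, a glycoprotein of wounds and remodelling tissue, read 9116 and 15536.5 on the controls, 5965 with progerin, 4311 with progerin and FTI, 6579 with prelamin A, 2337 after FTI and 2925 with ZMPSTE24. Every transduced array lay below both controls and every treated array below the untreated array of its line. Before treatment the differences were -0.99 with progerin (interval -2.18 to 0.20) and -0.85 with prelamin A (interval -2.04 to 0.34), neither of which was called. At 1 dimmer probe set TNC read 524 and 530 on the controls and 137 with progerin, a difference of -1.83, and with every probe set tested TNC was called in progerin cells.

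Of the thrombospondins, THBS3 also lay below both controls on every transduced array, at 766, 605, 750, 351 and 439 against 802 and 1196. THBS4 read 265 on control 1 and 1911 on control 2, and all 5 transduced arrays lay between them, at 350 to 792. THBS2 read 7437 and 6555 on the controls, 9966 and 8080 on the progerin arrays and 10893, 5507 and 10252 on the prelamin A arrays. None of these was called. The signals of THBS1 (18025 to 22191) and of fibronectin (33514 to 44775) were among the steadiest of the 34 genes. For FN1 the difference was -0.23 with progerin (interval -1.12 to 0.67) and 0.19 with prelamin A (interval -0.70 to 1.09).

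**Figure D3:**
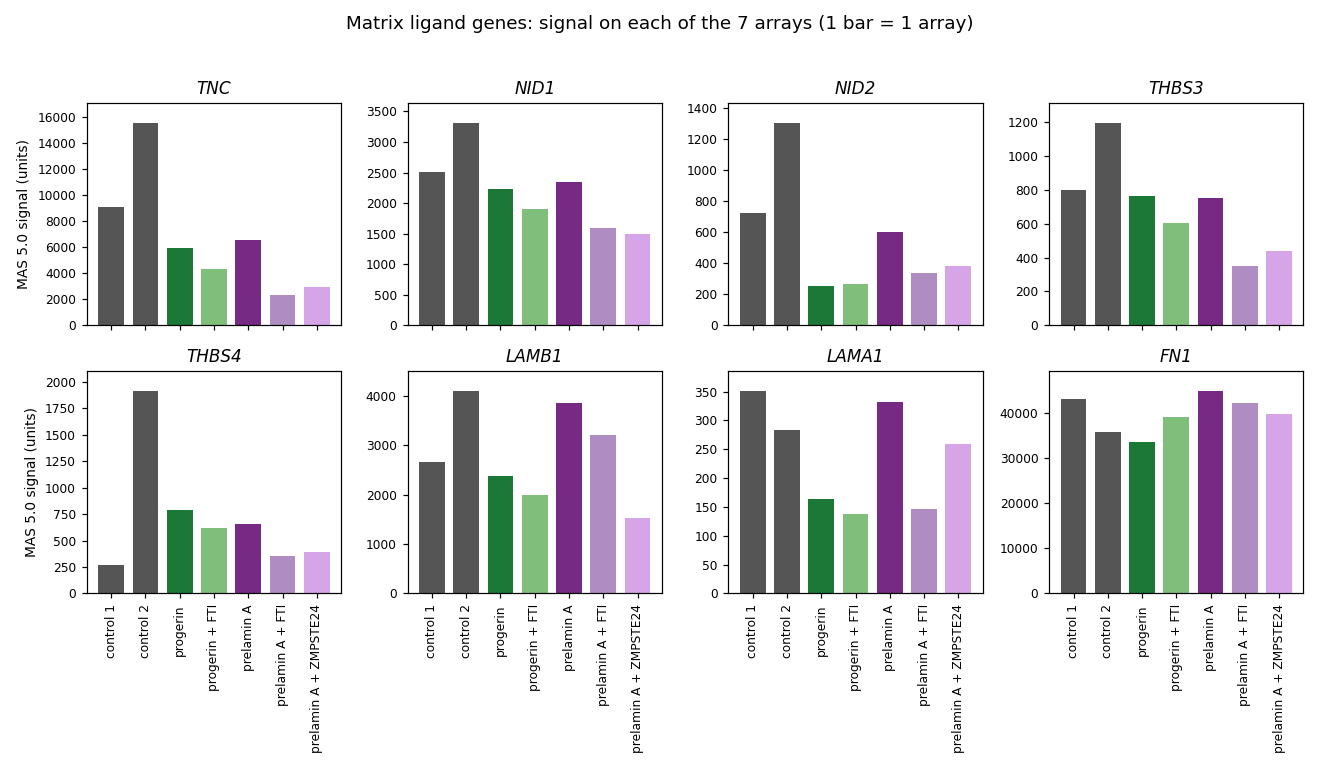
Signal of 8 matrix ligands on each of the 7 arrays (y axis, MAS 5.0 signal on a linear scale from 0, set for each gene; x axis, the arrays by condition; each bar is 1 array, with no error). TNC, NID1, NID2 and THBS3 lie below both controls on all 5 transduced arrays, THBS4 differs most between the controls (265 and 1911), and FN1 is nearly flat.

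The 34 genes spread more widely over the 7 arrays than genes at large. Their median range was 1.21 on the log2 scale, beside 0.85 over all genes tested, and 27 of 34 lay above that median. ITGA8 (3.44), ITGA7 (3.04), THBS4 (2.78), ITGA2 (2.74) and TNC (2.72) ranged most, and THBS1 (0.30), ITGB1 (0.36) and FN1 (0.42) least. Without regard to size, all 5 transduced arrays lay below both controls for 6 genes (ITGA5, ITGA11, NID1, NID2, THBS3 and TNC), beside 12.3% of all genes, and above both for 1 (ITGA8), beside 11.9%. The 3 prelamin A arrays lay below the other 4 for ITGA5 and LAMB2 (12% of all genes) and above them for ITGA2, ITGAE and ITGB5 (9.82%). The 2 progerin arrays were the lowest for ITGA1, ITGB1, ITGB5 and NID2 (8.11%) and the highest for ITGA3, ITGA4, ITGA7, ITGB3 and ITGB8 (8.07%). Part of the spread was between the controls. The 2 controls differed over 2-fold in 4 of the 34 genes, beside 9.28% of all genes, with ITGA7 higher on control 1 (4.97% of all genes) and THBS4, ITGA2 and LAMB3 higher on control 2 (4.31%). Control 2 held the highest value of 12 of the 34 genes, beside 21.39% of all genes.

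To test what followed when farnesylation was blocked or prelamin A was processed, each treated array was set against the untreated array of its line. FTI in progerin cells changed none of the 34 genes by the rule, where 1.45% of all genes were called, and 0 of the 34 had an unadjusted p under 0.05 in limma at any fold. FTI in prelamin A cells changed 3, where 2.81% of all genes were called, 1.19% higher and 1.62% lower. ITGB8 rose by 2.14 (standard error 0.37, interval 1.15 to 3.14), 4.42-fold, to a signal above both controls. TNC fell by 1.49 (standard error 0.52, interval -2.86 to -0.11). LAMA1 fell by 1.09 (standard error 0.39), to a signal below both controls. The adjusted p-values of these 3 genes rounded to 1.00 in limma. At the dim second probe set of ITGB8 the difference was -0.22, opposite in sign, while both other TNC probe sets above 100 moved the same way, by -1.77 and -1.28.

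ZMPSTE24 in prelamin A cells changed 4 of the genes, where 5.04% of all genes were called, 2.18% higher and 2.85% lower. ITGB8 rose by 1.83 (standard error 0.37, adjusted p = 0.653 in limma), to 1488. ITGB2 rose by 1.27 (standard error 0.45, adjusted p = 0.933), from 66.8 to 184, which is the level of control 2. ITGA8 fell by 1.97 (standard error 0.38, adjusted p = 0.653), to 356, and remained above both controls. LAMB1 fell by 1.33 (standard error 0.47, adjusted p = 0.923), below both controls. ITGA5 differed by 0.56 (interval -0.55 to 1.67) and stayed below both controls, and TNC differed by -1.17 (interval -2.54 to 0.21). ITGA7 differed by 2.15, more than any called gene, and ITGA11 by -1.09, and neither was called. ITGA7 and TNC were called with a pseudocount of 64 and with an intensity trend. ITGA11 was called with that trend and with every probe set tested. ITGB8 was thus the gene called with both treatments of prelamin A cells, and these treatments share their untreated array, the one on which ITGB8 was low.

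The effect of FTI differed between the lines in 1 of the 34 genes, ITGB8, where 1.84% of all genes were called. The FTI difference of ITGB8 was 0.40 with progerin and 2.14 with prelamin A, and their difference was 1.74 (standard error 0.53, adjusted p = 1.00 in limma). Without regard to size, 13 of the 34 genes were lower on all 3 treated arrays than on the untreated array of their line, beside 20.3% of all genes. They were the ligands TNC, NID1, THBS2, THBS3, THBS4, LAMA1, LAMB1 and LAMB2 and the receptor subunits ITGA1, ITGA8, ITGA10, ITGA11 and ITGB5. A further 5 (ITGB2, ITGB3, ITGB8, LAMA4 and LAMC1) were higher on all 3, beside 16.8%. These directions are of the brightest probe set of each gene. At a second probe set ITGA8 was higher with FTI in progerin cells, by 0.46. Other genes also reversed at a dimmer probe set that reached the minimum signal. With FTI in progerin cells ITGA1 and ITGB5 were higher there, by 0.05 and 0.12, and LAMC1 differed by -0.14. With FTI in progerin and prelamin A cells ITGB8 differed there by -0.79 and -0.22, and ITGB3 by -0.23 and -0.28. Every such probe set of TNC, NID1, LAMB1, ITGA11, ITGB2 and LAMA4 kept its direction, and the remaining listed genes had none.

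**Figure D4:**
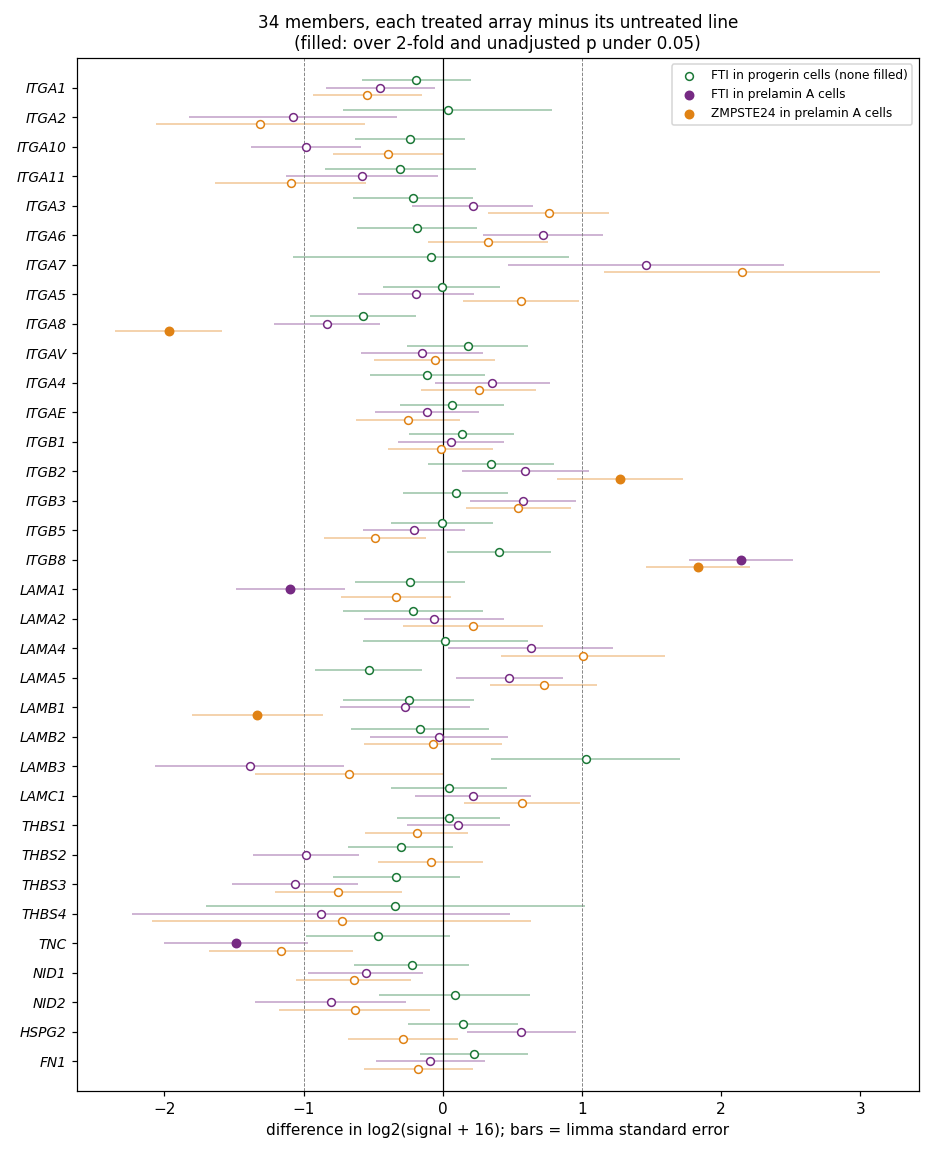
Log2 difference between treated and untreated arrays of the same line for the 34 genes (x axis, log2 units; y axis, genes by family; filled points were called, dashed lines mark 2-fold, and bars are the standard errors of the 6-condition limma model). ITGB8 moves up by 2.14 with FTI and 1.83 with ZMPSTE24 in prelamin A cells, ITGA8 and LAMB1 are lower with ZMPSTE24, and no point of FTI in progerin cells is filled.

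Pooling arrays gave more residual degrees of freedom, and calls were then made at an adjusted p under 0.05. The pooled lamin and treated arrays were single arrays of different conditions, not replicates. The p-values of the pooled models thus take differences between conditions as spread and do not measure replication. With 3 states (control, untreated lamin, treated), 0 of the 34 genes passed in any comparison, where 0.558% of all genes passed for untreated lamin arrays against control, 1.08% for treated arrays against control and 0% for treated against untreated lamin arrays. At an unadjusted p under 0.05 in limma the counts were 4 of the 34 for the first, beside 11.3% of all genes, and 6 for the second, beside 14.4%. TNC came nearest, lower on the treated arrays than on the controls by a difference of -1.94 (standard error 0.33, interval -2.74 to -1.14, adjusted p = 0.0622 in limma). THBS3 differed by -1.08 (adjusted p = 0.157), NID1 by -0.79 (adjusted p = 0.150) and ITGA11 by -1.37 (adjusted p = 0.143) in the same comparison. With all 5 transduced arrays against control, 0 of the 34 passed in limma where 2.87% of all genes did, and 6 had an unadjusted p under 0.05, beside 17.6% of all genes. NID2 came nearest at -1.43 (adjusted p = 0.0988). Treated against untreated lamin arrays, TNC (-1.02) and THBS3 (-0.72) were lower at an unadjusted p under 0.05 in limma, beside 1.3% of all genes, and 0 of the 34 were higher, beside 0.691%.

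Since ITGA5 was low on all 3 prelamin A arrays, arrays were also pooled by the lamin introduced, whatever the treatment, a comparison added after these values were seen. It thus describes the pattern that prompted it. The 3 prelamin A arrays are single arrays of different conditions, so the p-values here are not evidence from replicates. ITGA5 was then lower on the 3 prelamin A arrays than on the controls by a difference of -1.80 (standard error 0.26, interval -2.42 to -1.19, adjusted p = 0.0158 in limma), the 1 gene of 34 that passed where 6.28% of all genes did, 2.48% lower. At an unadjusted p under 0.05 it was 1 of 10 genes of the 34, beside 26% of all genes. ITGA8 followed at 2.40 (adjusted p = 0.0524). For the progerin arrays against control 0 of the 34 passed in limma, beside 1.05% of all genes (7 at an unadjusted p under 0.05, beside 15.4%), with NID2 nearest at -1.84 (adjusted p = 0.0774), and for prelamin A against progerin arrays 0 of the 34 passed in limma, beside 0% of all genes (6 at an unadjusted p under 0.05, beside 19.1%).

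The genes that act with integrins were read from the same 6-condition model. Of 27 adaptors and focal adhesion genes, 24 were tested and none rose, beside 3.76% of all genes higher with progerin and 6.29% with prelamin A. The shares of all genes lower were 2.04% and 4.02%. In progerin cells the kindlin gene FERMT1 (-1.29) and the docking protein gene NEDD9 (-1.28) fell, in prelamin A cells FERMT1 (-1.74) and LIMS2 (-1.25), a partner of integrin-linked kinase, fell, and no adaptor was called after any treatment. The median of these adaptors was -0.08 with progerin and -0.43 with prelamin A, beside 0.01 and -0.02 over all genes. Of 10 other matrix receptors tested, only the scavenger and thrombospondin receptor CD36 was called, higher in both lines. It read 64.3 and 28.7 on the controls, below the minimum of 100, 776 with progerin and 2645 with prelamin A, so it was tested only because of the arrays on which it was high, and no fold is given. The medians of the 10 were 0.17 and 0.11. Beside these same shares, of 23 other adhesive glycoproteins 7 rose and 1 fell with progerin. With prelamin A 9 rose and 3 fell, and the medians were 0.55 and 0.26. Of these, COMP, FRAS1, SMOC1 and SMOC2 read below 100 on both controls and were tested only because of transduced arrays with higher signals. The counts and medians of this list are thus a description only. With FTI in prelamin A cells 4 of them fell, beside 1.62% of all genes, and with ZMPSTE24 1 rose and 5 fell, beside 2.18% and 2.85%. Of 5 basement membrane collagens tested, 3 fell with progerin, beside 2.04% of all genes, with a median of -1.04. With prelamin A 2 fell and 1 rose, beside 4.02% and 6.29%, with a median of -0.96. With ZMPSTE24 in prelamin A cells 2 fell, beside 2.85%, and none was called with FTI in either line. Counts in so short a list are a description only.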

How the data were processed

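Gene expression was measured on 7 Affymetrix arrays, grouped by their labels. The authors deposited intensity values, MAS 5.0 signals on a linear scale with background correction, summarisation and scaling, 1 value per probe set and array, and the submitters' processing notes give no version. The 2% trimmed mean was 500.07 on the arrays, not the target the methods state, which is lower, so the minimum of 100 is on the deposited scale. The number of arrays limits the precision. Columns of authors' comparisons were not used.

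Of 54675 probe sets, the platform annotation gave 1 gene for 41091, several for 1801 and none for 11721, and 41037 of the first were found by gene ID in RefSeq. Each gene was read at its brightest probe set by mean signal, and the 12726 genes that reached 100 on some array were tested as log2(signal + 16) with limma 3.58.1 in R 4.3.3.

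The 6-condition model had 1 residual and 3.50 prior degrees of freedom, with calls at a fold over 2 and an unadjusted p under 0.05. The models of 3 states, of all transduced arrays and of the lamin introduced had 4, 5 and 4 residual degrees of freedom, with calls at a Benjamini-Hochberg adjusted p under 0.05. The fits were tested on simulated data. The genes and lists were chosen with earlier results of these data known. Genes were named where called, where in an adjusted-p model they came nearest, and by role. Up to 4 genes were named per list. Other settings tried were an intensity trend, median centring, quantile normalization, every probe set, dim probe sets kept, pseudocounts of 1 or 64, and leaving out arrays.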

Additional observations from a re-analysis of the deposited data

Results flagged for a closer look

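The lines with progerin and with prelamin A differed from each other in 5 of the 34 genes, each tested as the difference between the untreated arrays in limma, with 1 array a side. ITGA8 differed by 1.81 (399 with progerin and 1439 with prelamin A). ITGB8 differed by -2.19, and its signals were 1912 and 407. ITGA5 differed by -1.59 and has a single probe set, so that it could not be read at another one. ITGB3 differed by -1.30 and LAMA5 by -1.16, and both were dim, with no signal above 212 and 121. LAMA5 reached 100 on the progerin array alone, the array it is compared with here, so its difference is a description only.

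The effect of FTI on ITGB8 differed between the lines by 1.74. This value and the one of ITGB8 above rest on the same untreated prelamin A array, on which the β-actin 3' to 5' ratio was 1.62, and the part of that ratio in the difference was not tested.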

How the results depend on the processing

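Calls of single genes were recomputed 154 times under the alternatives: 134 kept their direction and side of the threshold (of the fold alone where a control was left out), 20 were weaker and none reversed. The calls of ITGA8, ITGA5, ITGB8, NID2 and ITGA2 held under each alternative fit of the 6-condition model. The weaker ones were of TNC with FTI in prelamin A cells (lost with median centring, a pseudocount of 1 and no filter), LAMB1, ITGA10 (also without control 1, at 0.92), LAMA1, ITGB2, ITGB3 and LAMA5. Calls gained included ITGA7 and LAMA5 with progerin. The count with ZMPSTE24 was 2 of 44 genes with no filter, in place of 4, and that of the FTI difference 2 in place of 1. Prelamin A against progerin gave 9 genes with every probe set, in place of 5. For treated arrays against control 1 gene (TNC) passed with a pseudocount of 64 and 1 (TNC) with an intensity trend, in place of 0. Over transduced arrays, leaving out each array gave 0 to 1 genes, the 1 being NID2 without the prelamin A array. Pooling by lamin together with calls by adjusted p, chosen after seeing the data, gave 0 in place of 2 for progerin, 1 in place of 5 for prelamin A and 0 in place of 5 between the lines. The pooled counts at an unadjusted p were 7, 10 and 6. By unadjusted p, also chosen later, 2 genes passed for treated against untreated lamin arrays. Genes over 2-fold from control numbered 6 to 9 with progerin, in place of 4, and 7 to 9 with prelamin A, in place of 5, when 1 control was left out, the 9 being without control 1. Leaving out a control in the 6-condition model leaves no residual degrees of freedom, so only folds were taken. No paired analysis was possible because the groups share fewer than 2 replicate numbers, and line as a block, which is no replicate number, gave 0 for treated against lamin arrays, as without it.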

Other observations

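Probe sets of one gene did not always give the same account. The brightest probe set of FN1 was nearly flat, while a dimmer one read 11370 and 28148 on the controls, 24756 and 24883 on the progerin arrays and 10531, 13658 and 6963 on the prelamin A arrays. It was lowest on the array of prelamin A with ZMPSTE24 and differed over 2-fold between the controls. A dimmer probe set of THBS1 read 2319 and 6915 on the controls and 2350 to 5582 on the transduced arrays, where the brightest ranged from 18025 to 22191. Which transcript each probe set reads was not analysed here.

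Control 1 and control 2 had a Pearson r of 0.959 over all genes tested, as a description of 1 pair of arrays. Control 1 correlated with the prelamin A arrays at 0.928, 0.939 and 0.947, and control 2 at 0.916 to 0.917.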
